A study of Rattus norvegicus with 6 samples.

Results

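The cytosolic ribosomal proteins of the rat were followed in 2 kinds of pluripotent cells, 3 arrays of flat pluripotent stem (fPS) cells and 3 arrays of embryonic stem (ES) cells. Members were chosen by name, from the probe sets to which the platform's annotation gives a single symbol that starts with Rpl or Rps and a digit, or that is Rpsa or Rplp0 to Rplp2. The S6 kinases, whose names begin alike, were left out (14 probe sets of 7 genes). This gave 50 genes on 57 probe sets, of 14217 genes measured in all, and a gene with several probe sets was represented by the one with the highest mean over the 6 arrays. The cells of both groups came from the Sprague-Dawley strain and were cultured with LIF, the GSK3 inhibitor CHIR99021 and the MEK inhibitor PD0325901. Both groups were kept on mouse embryonic fibroblasts whose division had been stopped with mitomycin C. The labels give no age, passage or line, they call both groups embryonic stem cells in the description field, and whether replicates were grown as cultures of their own is not stated.

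Each ribosome is made of a small subunit, which reads the mRNA, and a large subunit, which joins the amino acids. Their proteins are encoded by separate genes, 1 for nearly every protein, and are made in matched amounts, so their mRNAs are among the most abundant in dividing cells. In mammals these mRNAs begin with a C followed by an uninterrupted run of pyrimidines, the 5′ terminal oligopyrimidine (TOP) motif, through which the mTOR kinase controls their translation as a class. Several ribosomal proteins have close copies elsewhere in the genome, some of which are made in a few tissues only, and many processed pseudogenes.

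Promoter sequences from RefSeq (rat build GRCr8) were matched by symbol to 43 of the 50 genes, with a single promoter for each. The comparison took every promoter, not only those of genes measured on the arrays. A run of at least 8 uninterrupted C or T on the coding strand, within 40 bases on either side of the annotated start, was found in 34 of these 43 (79.1%) and in 30.2% of all 33469 promoters. The longest run in that window had a median of 10 bases in the members and of 6 bases in all promoters. To show how the run varies in length and place, 9 promoters follow, each from 40 bases before to 20 bases after the annotated start, with the longest run of C or T in capitals. The first 5 belong to genes of the ribosome itself and the last 4 to genes named as their relatives. The runs shown are 5 to 21 bases long in the first 5 and 5 to 9 in the last 4.
Rps23: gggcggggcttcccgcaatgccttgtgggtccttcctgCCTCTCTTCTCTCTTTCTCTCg
Rpl21: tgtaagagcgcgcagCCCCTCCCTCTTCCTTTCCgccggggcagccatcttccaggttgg
Rps6: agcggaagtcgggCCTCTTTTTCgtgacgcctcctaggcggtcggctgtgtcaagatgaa
Rps9: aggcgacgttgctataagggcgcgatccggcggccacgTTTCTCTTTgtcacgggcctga
Rpl3: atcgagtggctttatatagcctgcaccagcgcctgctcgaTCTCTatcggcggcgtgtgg
Rps4y2: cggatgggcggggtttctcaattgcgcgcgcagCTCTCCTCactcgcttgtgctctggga
Rpl39l1: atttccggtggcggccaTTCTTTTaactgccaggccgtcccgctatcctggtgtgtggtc
Rpl7l1: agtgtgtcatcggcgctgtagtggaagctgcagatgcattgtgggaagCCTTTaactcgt
Rpl3l: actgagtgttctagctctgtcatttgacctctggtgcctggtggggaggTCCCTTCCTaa
The run was 21 bases long in Rps23 (chr2:23814477-23814536, + strand) and 19 in Rpl21 (chr12:13386134-13386193, - strand). It was 10 bases long in Rps6 (chr5:106420521-106420580, - strand) and 9 in Rps9 (chr1:74430418-74430477, - strand), and it was 5 bases long in Rpl3 (chr7:113507971-113508030, - strand). Among the genes with related names it was 8 bases long in Rps4y2 (chr4:183000873-183000932, + strand), 7 in Rpl39l1 (chr10:5966602-5966661, - strand) and 5 in Rpl7l1 (chr9:21695678-21695737, + strand), and it was 9 bases long in Rpl3l (chr10:14258406-14258465, + strand). A run of at least 8 bases was found in 11 of 12 small subunit genes, 19 of 24 large subunit genes and 4 of 7 genes with other names. The search asked for no C at the first base of the mRNA and took runs on either side of the start. In Rpl21, Rps6 and Rpl39l1 the run ended before the annotated start, so by that annotation it is not in the mRNA. Over the whole 300-base promoters, on either strand, CCGGAAG was found in 23.3% of the members and 8.75% of all promoters, AAGATGG in 18.6% and 7.01%, and TATAAA in 14% and 14.2%. These are matches of letters and not sites of binding.

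The ribosomal protein transcripts differed little between fPS and ES cells. None of the 50 genes passed limma's test at an adjusted p under 0.05, where 0.858% of all genes passed (0.57% higher and 0.288% lower in fPS cells), and 0 of 50 had an unadjusted limma p under 0.05, where 17.5% of all genes had. The share of 0.858% rests on 122 genes and on single arrays, since limma called 93, 0 and 3 genes without fPS replicates 1, 2 and 3, and 0, 19 and 1 without ES replicates 1, 2 and 3. The lowest adjusted p of a member was 0.412, for Rps4y2. The median log2 change (fPS minus ES) was -0.046 over the members and 0.00097 over all other genes. Its size, in either direction, had a median of 0.075 in the members and 0.277 in all other genes, and 43 of the 50 members but 46.1% of the other genes changed by less than 0.25. The spread between replicates was narrower too, with a median residual SD of 0.128 in the members and 0.319 in the other genes. These figures describe the gene set and were not tested against other genes. The members were also brighter, with array medians of 12.93 to 13.13 on the log2 scale, against 6.52 to 6.79 in the other genes. No comparison with genes of like brightness was made. The 11 measured mRNAs outside the name rule that share the TOP motif or encode ribosome components had a median residual SD of 0.126.

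**Figure D1:**
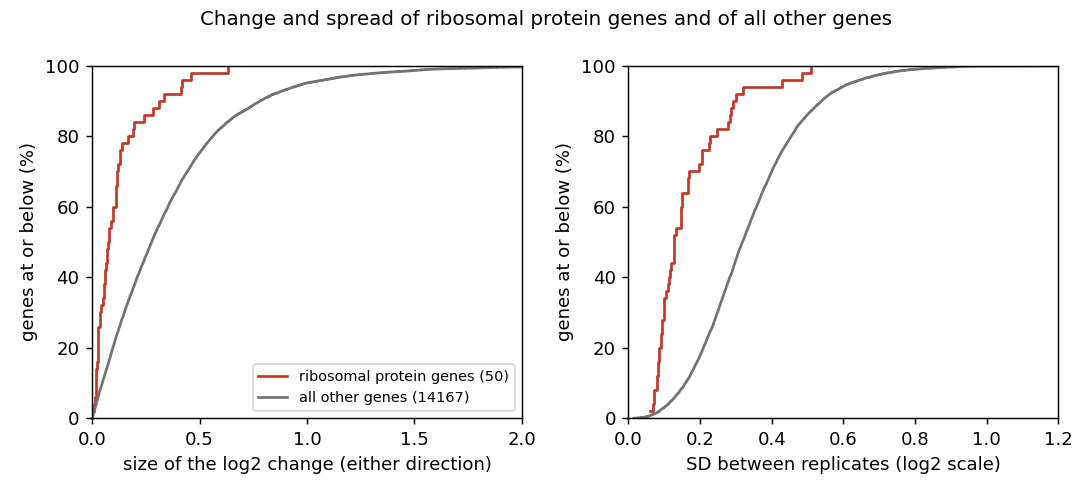
Cumulative share of genes (y axis, percent) by the size of the log2 change between fPS and ES cells (left) and by the residual SD between replicates (right), for the 50 ribosomal protein genes (red) and the 14167 other genes (grey). The red curve has its median at 0.075 on the left and 0.128 on the right, and the grey curve at 0.277 and 0.319.

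How small a change could have been seen is shown by the intervals. The 95% confidence interval of the log2 change, from limma, covered 0 in all 50 members and lay within 1 in either direction, a 2-fold change, in 47 of them. Limma moderates the error of each probe set towards that of all probe sets, and the median SE of the members was 0.199. A p that misses the threshold does not show equal levels, and the number of arrays limits the precision.

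**Figure D2:**
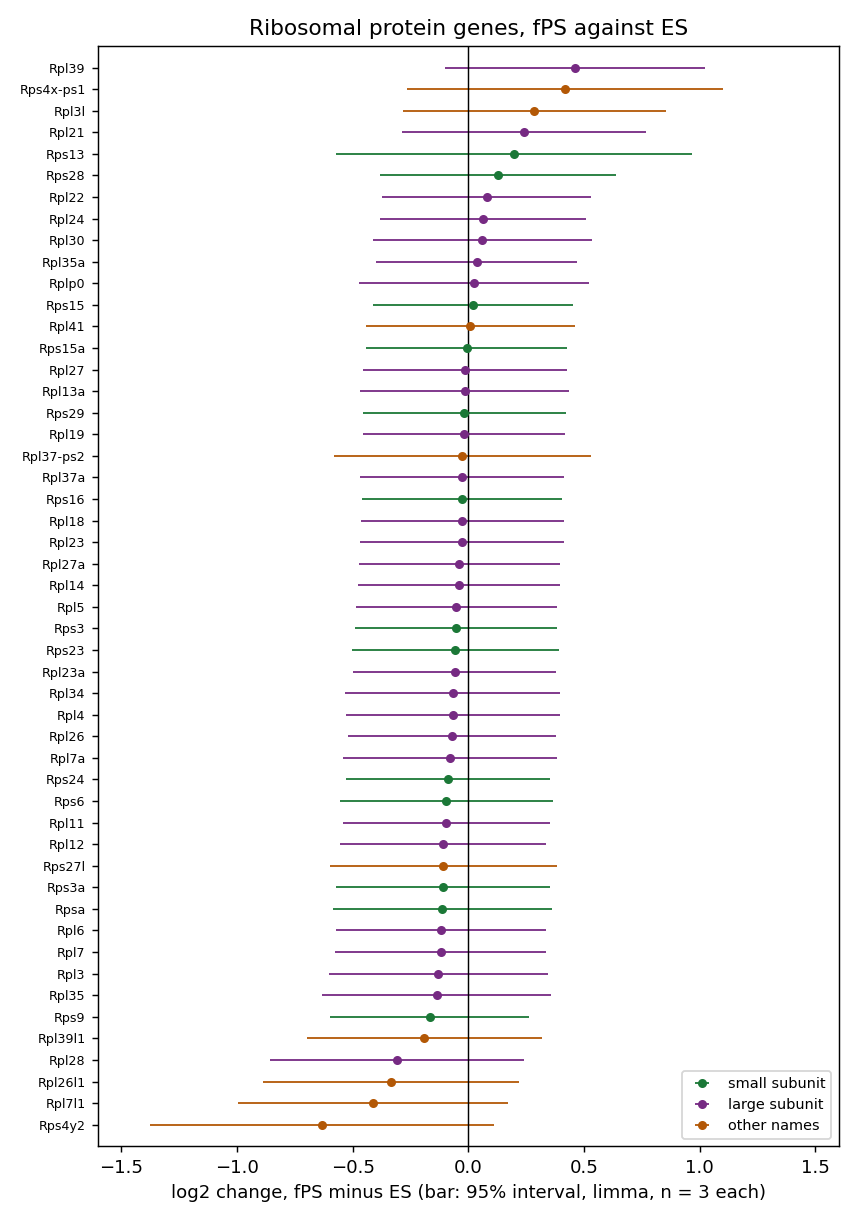
Log2 change (fPS minus ES, x axis) of each of the 50 ribosomal protein genes, with the 95% interval from limma (3 arrays in each group), coloured by subunit or by membership in the group of other names. All 50 intervals cross 0, and the genes farthest out, Rpl39 at 0.46 and Rps4y2 at -0.63, carry wide intervals.

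Ribosomal protein probe sets were among the brightest on the arrays. Of the 100 genes with the highest mean log2 value, 38 were members, and these same 38 had mean intensities of at least 5000. Their log2 changes lay between -0.17 and 0.24. Intensities of different probe sets do not rank transcripts, since each set binds with its own strength. The highest member value was 14031, and the highest of any probe set was 18197. Whether signals of this brightness were compressed was not tested. In RNA from whole cultures, fewer cells of a type and less RNA per cell cannot be told apart.

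Of 31 small subunit proteins listed, 13 had a probe set of their own. None of these passed in either direction. Their median log2 change was -0.055, with 10 below 0 and 3 above. Rps23, a protein of the decoding centre and the member with the highest intensity, had 10584, 12510 and 11483 on the fPS arrays, against 11180, 11813 and 12973 on the ES arrays. These groups overlapped, and the log2 change of -0.057 (SE 0.197) did not pass (limma adjusted p = 0.937). Rps6, the protein that S6 kinases phosphorylate, had 9031.5, 10159 and 9958 in fPS cells and 9621, 9616 and 12032 in ES cells. Only ES replicate 3 stood above the fPS range, and the log2 change was -0.095 (SE 0.203, adjusted p = 0.888).

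Rps9, which lies near the entry channel of the mRNA, was the only member whose groups did not overlap. Its intensity was 7059, 7587 and 6835 on the fPS arrays, against 7998, 7856 and 8270 on the ES arrays. All 3 fPS values lay below the lowest ES value, by a small margin. The log2 change was -0.17 (SE 0.189), and limma's adjusted p was 0.745. That is 1 of 50 members, where the groups did not overlap in 22.6% of all genes (11.3% higher and 11.3% lower in fPS cells).

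The small subunit genes that follow lay closer to 0 than Rps9, while Rps13, at low signal, lay farther out at 0.20. Rps15, whose tail reaches into the decoding centre, averaged 7377 ± 438 in fPS cells and 7279 ± 237 in ES cells (SD, n = 3 each), a log2 change of 0.018. Rps15a averaged 9996 ± 648 in fPS cells and 10038 ± 303 in ES cells, a log2 change of -0.0075. Rpsa, known also as the laminin receptor precursor, had a log2 change of -0.11, and Rps3a and Rps29 had -0.11 and -0.017. Among the small subunit genes with mean intensities of at least 5000, Rps28 had the widest spread, with a residual SD of 0.227. The dim probe set of Rps13 had 0.509. For Rps28 the values were 6539, 8830 and 7414 in fPS cells and 7634, 7534 and 5707 in ES cells. The highest value of Rps28 was on fPS replicate 2 and its lowest on ES replicate 3, and the log2 change of 0.13 (SE 0.225) did not pass.

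Of 45 large subunit proteins listed, 28 had a probe set of their own, and none passed in either direction. The median log2 change was -0.039, with 21 below 0 and 7 above. Rpl5 and Rpl11 bind the 5S rRNA, and outside the ribosome they hold the p53 ligase Mdm2. Rpl5 had 9495, 9220 and 8777 in fPS cells and 8952, 9371 and 10222 in ES cells, and Rpl11 had 9517, 10965 and 9671 in fPS cells and 10297, 10142 and 11800 in ES cells. In both genes the groups overlapped, and the log2 changes were -0.053 and -0.096.

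Rplp0, the base of the stalk that binds elongation factors, had 8557, 9935 and 8686 on the fPS arrays and 8115, 7873 and 11009 on the ES arrays. The means were near each other, with a log2 change of 0.023 (SE 0.219), while the ES arrays held both the highest and the lowest value. Rpl3, which helps to form the peptidyl transferase centre, had 10253, 11291 and 10640 in fPS cells and 10740, 10703 and 14031 in ES cells. Again ES replicate 3 alone stood apart, and the log2 change was -0.13 (SE 0.208, adjusted p = 0.837). Rpl26 and Rpl7a, also among the members of highest intensity, had log2 changes of -0.071 and -0.078. Rpl22, an RNA-binding protein, had one of 0.079.

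The largest positive values in the large subunit were those of Rpl39 and Rpl21. Rpl39, a small protein of the tunnel through which the new chain leaves, had 817, 656 and 667 in fPS cells, against 426, 451 and 696 in ES cells. All fPS values were above ES replicates 1 and 2, but ES replicate 3 fell among them. The log2 change was 0.46 (SE 0.247, interval -0.10 to 1.02, adjusted p = 0.432). It was positive under every alternative run, from 0.33 to 0.72, and the adjusted p ran from 0.167 to 0.682. Rpl21 had 5824, 6815 and 5060 in fPS cells and 5346, 5718 and 3980 in ES cells. The groups overlapped, with ES replicate 3 the lowest of all, and the log2 change was 0.24 (SE 0.231, adjusted p = 0.693).

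The remaining 9 genes carry names the pattern takes but are not in either subunit list. One of them, Rpl41, is the smallest protein of the large subunit, and its log2 change was 0.0081. The others are Rps27l, Rpl3l, Rpl39l1, Rps4y2, Rpl7l1 and Rpl26l1, named as relatives of ribosomal proteins, and Rpl37-ps2 and Rps4x-ps1, named as pseudogenes. None passed in either direction. They lay further from 0 than the subunit genes, with a median size of the log2 change of 0.285, against 0.088 in the small and 0.066 in the large subunit. Their median residual SD was wider as well, at 0.285, against 0.093 and 0.123. They were also dimmer, with array medians of 10.09 to 10.69 on the log2 scale. Those of the small subunit were 13.02 to 13.33 and those of the large subunit 13.04 to 13.24. Rpl26l1, Rpl37-ps2, Rpl3l and Rps4x-ps1 had every array under 110. Whether the groups of genes differ was not tested, nor was the part of low signal.

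Rps4y2, by its name a copy of Rps4x and placed on chromosome 4 by RefSeq, had the lowest change of all members. It had 2750, 2029 and 1077 in fPS cells, against 2942, 2853 and 2692 in ES cells. The ES arrays were close together, while the fPS arrays spread over more than a 2-fold range, and fPS replicate 1 lay within the ES range. The log2 change was -0.63 (SE 0.327, interval -1.37 to 0.11, adjusted p = 0.412). It was negative under every alternative, from -0.93 without fPS replicate 1 to -0.26, and the adjusted p ran from 0.195 to 0.71. Without fPS replicate 3, the array with the lowest value, it was -0.26.

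Rpl7l1, which in human cells helps to assemble the large subunit, averaged 1319 ± 175 in fPS cells and 1798 ± 524 in ES cells (SD, n = 3 each). Its values were 1507, 1160 and 1289 in fPS cells and 1690, 1338 and 2368 in ES cells, so that the groups overlapped and ES replicate 3 was highest. The log2 change was -0.41 (SE 0.257, adjusted p = 0.504). A second probe set of the gene gave -0.32. Rpl39l1, by its name a copy of Rpl39, had 3444, 3922 and 2922 in fPS cells and 4687, 3628 and 3452 in ES cells, a log2 change of -0.19 (SE 0.224). The sign was thus opposite to that of Rpl39, but neither gene passed and the difference between them was not tested. Rps27l, a copy of Rps27 that p53 induces in human cells, had 1229, 1693 and 1271 in fPS cells and 1392, 1459 and 1639 in ES cells. Its groups overlapped, with a log2 change of -0.11 (SE 0.216).

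**Figure D3:**
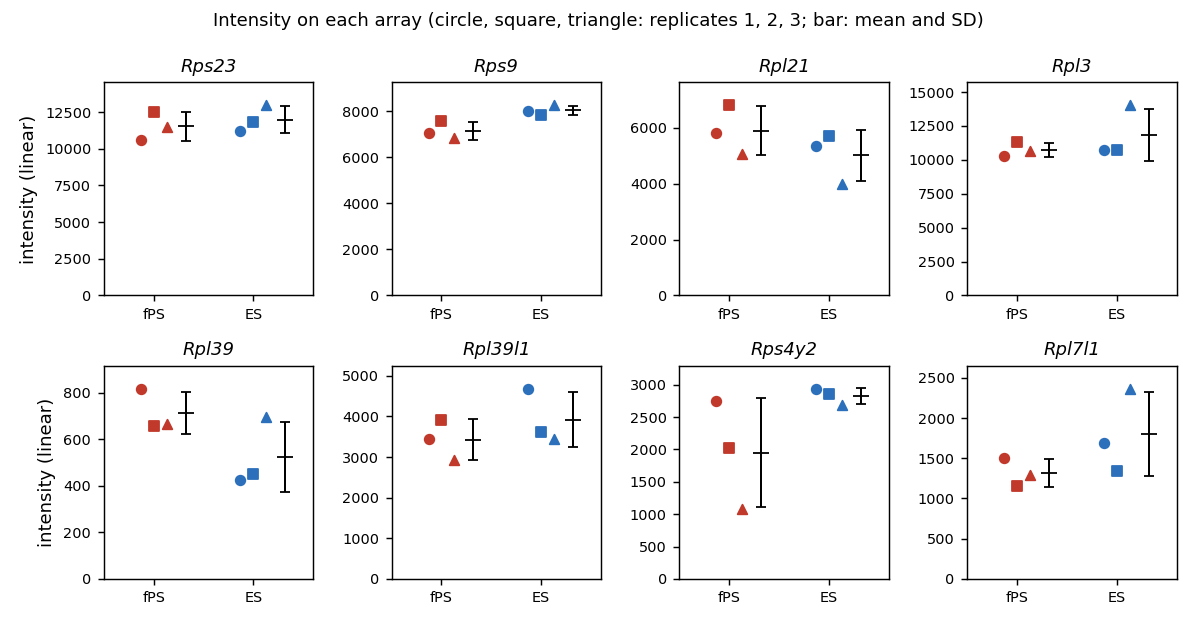
Intensity (linear, y axis from 0) of 8 ribosomal protein genes on each array, with fPS in red and ES in blue. Circles, squares and triangles are replicates 1, 2 and 3, and the black bar is the mean with its SD (n = 3). Only Rps9 shows groups that do not overlap, fPS replicate 3 is lowest for Rps4y2, and ES replicate 3 is highest for Rpl3 and lowest for Rpl21.

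The probe sets of 7 members had low signal throughout, with every array under 110. Rpl3l, which in muscle takes the place of Rpl3, averaged 34.9 ± 10.9 in fPS cells and 25.7 ± 8.78 in ES cells, a log2 change of 0.29. Rps4x-ps1, with 15.1 ± 7.4 in fPS cells and 7.77 ± 8.48 in ES cells, had a log2 change of 0.42, which with a pseudocount of 1 was 1.22. Rpl26l1 averaged 63.0 ± 12.1 in fPS cells and 84.8 ± 23.5 in ES cells, a log2 change of -0.34. Rpl28, Rpl30 and Rps13 are abundant ribosomal proteins, yet the single-symbol probe sets of these genes were equally dim, with log2 changes of -0.31, 0.060 and 0.20. Probe sets that list the same 3 genes with other symbols were bright. For example, the one shared by Rps13 and its copies averaged 7102 ± 661 in fPS cells and 7633 ± 675 in ES cells. Which of the sets follows the mRNA of the gene itself was not tested.

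More than 1 probe set was found for 6 genes, and in 3 of them (Rpsa, Rps24 and Rpl3) the sets differed in sign. The second set of Rpl3, whose identifier marks it as not specific, had 587, 656 and 1640 in fPS cells and 258, 367 and 1057 in ES cells. It was highest on replicate 3 of both groups. On those arrays 7 collagen genes also had their highest mean log2 value, 7.47 on fPS replicate 3 and 7.67 on ES replicate 3, against 5.60 to 6.59 on the others, and their part in that signal was not tested. In the other sets of Rpl3, Rpl7l1, Rps24 and Rpsa the groups overlapped. The second sets of Rpl14 and Rpl7 were lower on all fPS arrays than on all ES arrays, as were 11.3% of all genes. They were picked out after their values were seen. That of Rpl14 had 125, 157 and 91.6 in fPS cells and 224, 193 and 176 in ES cells, a log2 change of -0.62 (adjusted p = 0.255). That of Rpl7 had 1433, 1946 and 1640 in fPS cells and 2093, 2177 and 3428 in ES cells, a log2 change of -0.59 (adjusted p = 0.321). Neither passed, and the brighter set of each gene had -0.040 and -0.12.

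The members moved more from array to array than between the groups. For the 38 bright members, the median deviation from the gene's own mean over the 6 arrays was -0.096, 0.086 and -0.053 on fPS replicates 1 to 3 and -0.039, 0.0086 and 0.081 on ES replicates 1 to 3, on the log2 scale. On fPS replicate 2, 41 of the 50 members were higher than on both other fPS arrays, as were 27.7% of all genes. That array also had the highest ratio of 3′ to 5′ β-actin signal, a measure of RNA integrity and labelling, at 4.37, against 2.06 to 2.69 on the other arrays. The same ratio for GAPDH was lowest there, at 0.956, against 0.971 to 1.01 on the other arrays, so the measures went opposite ways. Their part in these values was not tested.

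ES replicate 3 differed in another way, since its members moved apart. There the deviations ran from -0.44 (Rpl21) to 0.32 (Rpl3), with an SD over the 38 genes of 0.175, against 0.054 to 0.076 on the other arrays. Over the genes that are not members this SD was also highest on ES replicate 3, at 0.453, against 0.318 to 0.438. Of all 50 members, 30 were higher and 14 lower on it than on both other ES arrays, beside 45.7% and 33.5% of all genes. Rplp0, Rpsa, Rps3a and Rpl4 were higher by 0.46, 0.38, 0.36 and 0.35 than the mean of the other two ES arrays, while Rps28, Rpl35 and Rpl22 were lower, at -0.41, -0.36 and -0.22. Collagen signal was highest on this array too, and its 3′ to 5′ β-actin ratio of 2.06 was the lowest. Neither was tested as the origin of the pattern.

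**Figure D4:**
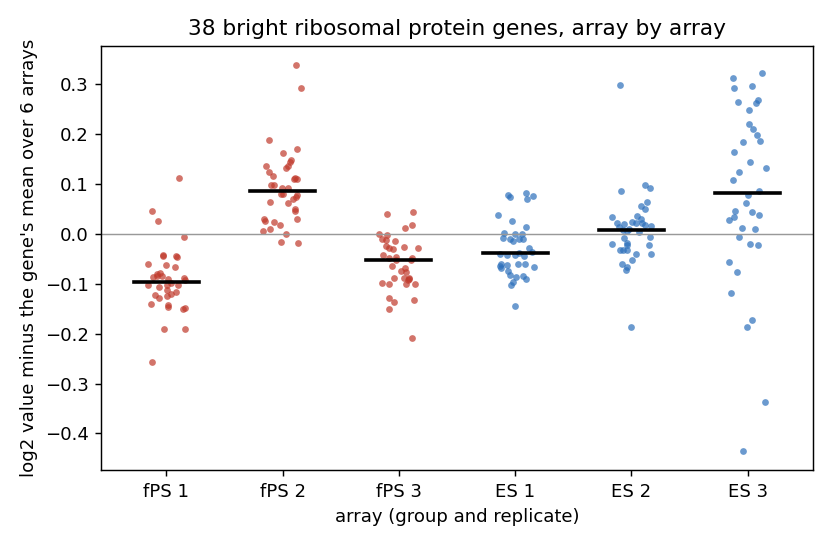
Log2 value minus the gene's mean over the 6 arrays (y axis) for the 38 bright ribosomal protein genes on each array (x axis), fPS in red and ES in blue, with the median of each array as a black bar. Medians lie between -0.096 and 0.086, fPS replicate 2 and ES replicate 3 are the 2 arrays clearly above 0, and the points of ES replicate 3 are spread most.

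The balance of signs therefore rested on single arrays and on the scaling. With all arrays, 37 of the 50 members were below 0, beside 49.9% of the other genes. The count was 26 without ES replicate 3, 27 without fPS replicate 1 and 42 without fPS replicate 2, and after quantile normalization it was 17, with a median of 0.036. No direction is therefore given for the family. Summed over the members, the share of all signal on an array was 3.996%, 4.66% and 4.79% in fPS cells and 4.30%, 4.54% and 4.03% in ES cells, and the groups overlapped.

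Genes that work with the ribosome were set beside it. Of 18 listed mRNAs outside the name rule that share the TOP motif or encode ribosome components, 11 were measured and none passed. Their median log2 change was -0.14, from -0.39 for Hnrnpa1, an RNA-binding protein, to 0.16 for Eif3f, an initiation factor. Of 52 ribosome biogenesis genes 51 were measured and none passed, where 0.858% of all genes did. Their median was -0.23, with 42 below 0 and 9 above, beside 49.9% of the other genes below 0. The range ran from -1.31 for Rrp1b, a nucleolar protein (adjusted p = 0.0983), to 0.42 for Nop10, a subunit of the particle that pseudouridylates rRNA. Rrp1b had 305, 225 and 191 in fPS cells, against 549, 426 and 952 in ES cells, so its groups did not overlap. In the list, all fPS arrays lay below all ES arrays in 6 genes and above in 0, beside 11.3% of all genes each way. The median log2 level of the list was 9.83, 9.19 and 8.97 on fPS replicates 1 to 3, against 9.64, 9.22 and 9.82 on ES replicates 1 to 3. It was highest of all on fPS replicate 1, the groups overlapped, and no direction is given for this list either.

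The mitochondrial ribosome, which translates the mRNAs of that organelle, has its own proteins. Of its 73 genes none passed, where 0.858% of all genes did. The median log2 change was -0.25, with 60 below 0 and 13 above, beside 49.9% of the other genes below 0. All fPS arrays lay below all ES arrays in 18 genes and above in 1, beside 11.3% of all genes in each direction. The list was not tested as a set. The median log2 level of the list was 9.89, 9.77 and 9.49 in fPS cells, against 10.17, 9.98 and 9.72 in ES cells, and fPS replicates 1 and 2 lay above ES replicate 3. Mrps7 had the lowest value, -1.07 (adjusted p = 0.161), and Mrpl36 the highest, 0.51. Among 11 measured regulators of ribosomal protein mRNAs none passed. Rps6kb1, the S6 kinase that phosphorylates Rps6, had 153, 138 and 55.0 in fPS cells, against 301, 309 and 296 in ES cells, a log2 change of -1.37 (SE 0.327, adjusted p = 0.0933). Myc, a transcription factor that raises ribosome production, had 198, 315 and 146 in fPS cells, against 48.7, 55.0 and 142 in ES cells, a log2 change of 1.33 (SE 0.391, adjusted p = 0.158). Mycn, its relative, went the other way, with 575, 287 and 228 in fPS cells, against 627, 663 and 1512 in ES cells, a log2 change of -1.31 (SE 0.421, adjusted p = 0.185). In none of these 3 genes did the groups overlap, and none passed. Among the 11 regulators, all fPS arrays lay below all ES arrays in 4 and above in 1, beside 11.3% of all genes each way. An unadjusted limma p under 0.05 was found in 5 of the 11, where 17.5% of all genes had one. This list was not tested as a set either.

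**Figure D5:**
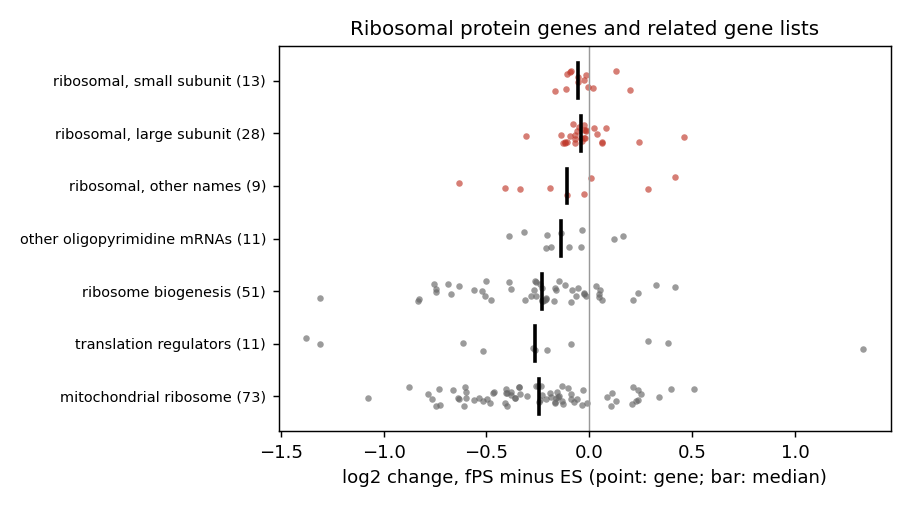
Log2 change (fPS minus ES, x axis) of each gene in 7 lists, with the number of genes in brackets and the median as a black bar. Ribosomal protein genes (red) have medians of -0.055, -0.039 and -0.11, and the lists of ribosome biogenesis and of the mitochondrial ribosome (grey) have medians of -0.23 and -0.25.

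The labelled cell types were checked by their markers. Of 17 listed markers of pluripotent cells 10 were measured, and their summed intensity ran from 14732 to 20144 on the fPS arrays and from 17607 to 23284 on the ES arrays. Within this sum single markers went opposite ways, and none passed. Lin28a, an RNA-binding protein of pluripotent cells, had the lowest log2 change, -1.30 (adjusted p = 0.0933), and the transcription factor Sox2 had -0.97 (adjusted p = 0.181), with all fPS arrays below all ES arrays in both. The nuclear receptor Nr0b1, at low signal, had the highest, 0.76 (adjusted p = 0.213), and Klf5 had 0.32 (adjusted p = 0.506), with all fPS arrays above all ES arrays in both. Groups that do not overlap were found in 22.6% of all genes, and Sox2 and Klf5 were picked after their values were seen. Pou5f1 and Nanog, both without a single-symbol probe set, were not analysed here. All 16 listed fibroblast markers, for the feeder cell type, were measured, with sums of 3002 to 3501 on the fPS arrays and 2366 to 3328 on the ES arrays. Much of that sum was Timp1. The other 15 summed to 922, 828 and 2097 on fPS replicates 1 to 3, against 449, 644 and 2738 on ES replicates 1 to 3, highest on replicate 3 of each group. Of the 16, 12 had a log2 change above 0 and 4 below, with a median of 0.30, and none passed. The range ran from -0.63 for Col5a1, a collagen, to 1.198 for Postn, a matrix protein at low signal (adjusted p = 0.125). The groups of Postn did not overlap. No defining marker was tested for its part in the ribosomal signal, and the share of feeder RNA in it was not tested. The feeders were mouse cells, and how far these rat probe sets read mouse RNA was not tested.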

How the data were processed

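Per the labels' protocols, biotin-labelled cRNA from each sample went onto an Affymetrix 3′ expression array. The values are linear intensities as deposited by the authors, 1 per probe set and array. How probes were summarised, background corrected and scaled is not given in the sources used here. No other columns per sample were present (0 counted), so no detection calls were used. Array medians ran from 36.2 to 45.3.

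Of 31099 probe sets, 57 controls were left out and 31042 tested. The platform's annotation gave 1 symbol to 20826, several to 436 and none to 9780. Values were used as log2(intensity + 16), a scale that understates changes of dim probe sets, with no further normalization or filter. The contrast fPS minus ES was fitted with limma 3.58.1 (lmFit, eBayes; R 4.3.3), with p-values adjusted by Benjamini-Hochberg over all probe sets at a threshold of 0.05. The fit was run on simulated data drawn from limma's own variance model, with large changes and independent arrays. That run cannot show how the fit deals with shifts of whole arrays or with small changes. Since the replicates may be technical, p-values measure the spread between these samples only. The gene IDs of 48 of the 50 members were found in RefSeq's GRCr8 table, with 0 changed symbols. Promoter windows ran from 250 bases before to 50 after the start. Summaries and plots were made in Python 3.11.15 with matplotlib 3.10.9.

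The members, lists and tests were chosen with earlier results of these data known. Named were the 6 members of highest intensity, the 5 highest and 5 lowest changes, members with a role of their own, and of each other list the highest and lowest change. No gene had probe sets of opposite sign whose groups did not overlap in both, the remaining part of the rule. Sox2, Klf5, Mycn, Rps9, Rps15, Rps15a, Rps24, Rps28, Rpl4, Rpl7, Rpl14, Rpl30, Rpl35, Rpl37-ps2 and Rpl41, the second probe sets named, and the limits of intensity were chosen after their values were seen. Alternatives covered pseudocounts, scaling, dim or unspecific probe sets, the variance model, a replicate block, the mean over probe sets and arrays left out.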

Additional observations from a re-analysis of the deposited data

How the results depend on the processing

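None of the 50 members passed in any of the 16 alternatives, of which the filter on dim probe sets kept 49 and the removal of unspecific sets 48. At most 2 had an unadjusted limma p under 0.05. The median log2 change of the members lay between -0.11 (centred arrays) and 0.036 (quantile normalization), and after subtraction of the median of all other genes between -0.096 (without fPS replicate 2) and 0.038 (without fPS replicate 1), and no alternative moved either value by more than its SD between replicates, 0.0916 and 0.12. With the 36 probe sets of several symbols added, and over members with a mean intensity of at least 1000 (a limit chosen, like that addition, after seeing the data), it moved by less than that SD too. Of 797 member values under an alternative, 781 moved by less than the SD of that gene and 16 by more. Only 13 of 50 members kept 1 sign throughout.

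The count over all genes was less stable. It was 122, and 203 with centred arrays, 300 with the mean over probe sets, 0 and 26 with pseudocounts of 1 and 64, 358 with trend and robust settings, 416 without the dimmest 30% of probe sets and 0 when replicate 3 was left out of both groups; the cause was not tested. Without single arrays it ran from 0 to 93. Where limma's count was 0, the genes with an unadjusted p under 0.05 numbered 1831 (pseudocount of 1), 1615 when fPS replicate 2 was absent, 1891 when ES replicate 1 was, and 2329 when replicate 3 of both groups was, beside 2484 with all arrays. With centred arrays 96 of 203 were higher, against 81 of 122, and the median of the other genes was -0.059. With the replicate number as a block it was 64, and 0 members passed. Deviations of same-numbered arrays correlated at 0.151, 0.020 and 0.0748, so the numbers were not taken as pairs. ES replicate 2 correlated best with fPS replicate 3, while every other array correlated best with its own number.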

Other observations

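Many ribosomal proteins are seen on these arrays only through probe sets that list several symbols, mostly the gene and its copies or pseudogenes. There were 36 such sets, and 13 small subunit and 14 large subunit proteins of the lists were covered by them alone. A further 5 proteins of the small and 3 of the large subunit had no probe set under their listed symbol and were not analysed here. Of the 36 sets, 35 had a mean intensity of at least 1000. None passed limma's test, where 0.858% of all genes passed, and 0 had an unadjusted limma p under 0.05, where 17.5% of all genes had. The median log2 change was -0.038, with 23 of 36 below 0 and a range from -0.32 to 0.24. The set that lists Rpl22l1 with its copies, a relative of Rpl22, had the lowest value, with 3578.5 ± 453 in fPS cells and 4483 ± 552 in ES cells (SD, n = 3 each). The set that lists Rpl36 had the highest, with 1078 ± 221 in fPS cells and 959 ± 374 in ES cells. The set of Rps4x, whose copy Rps4y2 had the lowest value among the members, was at 9298 ± 562 in fPS cells and 9726 ± 792 in ES cells, a log2 change of -0.064. The set of Rps19 had 10952 ± 962 in fPS cells and 10186 ± 574 in ES cells, a log2 change of 0.10, and that of Rpl38 had a log2 change of 0.036. In 2 of the 36 sets, those of Rpl22l1 and Rpl10a, all fPS arrays lay below all ES arrays, and in 0 above, beside 11.3% of all genes in each direction. The genes named here outside the roles listed were chosen after their values were seen.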
